A study of Mus musculus with 13 samples.

Results

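Plasma miRNAs of Givinostat-treated mdx mice were compared with those of mdx mice that received no treatment. The mice were chosen by their labels, Givinostat at 37.5 mg/kg (mice 31, 34 and 35) and naive mdx (mice 36, 37 and 39), and they make up 6 of the 13 small RNA libraries of the series. Mdx mice (C57BL10ScSn-Dmdmdx/J) carry in every tissue a point mutation of the dystrophin gene, by which dystrophin is lost, and model Duchenne muscular dystrophy. The series also has 4 vehicle mdx mice and 3 naive wt mice (C57BL/10J, with no treatment), and the strain tag of all 13 samples reads C57BL/10J. Givinostat, an inhibitor of histone deacetylases, was suspended in 0.5% methylcellulose and given by gavage on 5 days per week for 15 weeks. Vehicle mice were gavaged with the methylcellulose alone on the same schedule. All mice were male, and each library was made from EDTA plasma of a single mouse bled at the end of the dosing period. The contrast described here therefore holds the drug plus the gavage and its vehicle, and the 2 cannot be told apart within it. By the paper's methods, naive mice also went through the functional tests, grip strength and treadmill running to exhaustion. How running bore on plasma levels was not tested. The question the contrast answers is how far the plasma of dosed mdx mice stood from that of undosed mdx mice.

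The Givinostat libraries held 1364813 to 1437031 miRNA counts (median 1381630) and the naive mdx libraries 1167161 to 1556118 (median 1502944). Of 1907 miRNAs in the table, 1043 had a count in these 6 libraries, and 368 passed a filter on low counts and were tested. Levels are given as CPM, read counts brought to a common library size, with TMM factors that set the bulk of the miRNAs equal between libraries. Plasma has no marker of its own. Skeletal muscle markers were abundant in both groups, and miR-124-3p, a neuronal miRNA, had between 1 and 5 counts in each of the 6 libraries. Naive mdx mouse 36 stood apart from the other mdx mice, with a score of 12.78 on the leading principal component of the 10 mdx libraries (38% of the variance) against -7.26 to 8.44 for the other mice. Since plasma pools RNA from many tissues, fewer releasing cells and less RNA released per cell cannot be told apart.

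A miRNA is a short RNA that guides Argonaute proteins to messenger RNAs, and bases 2 to 8 from its 5′ end, the seed, set most of its targets. The precursor hairpin gives a 5p and a 3p arm, and miRNAs whose hairpins lie close together are often made from a shared transcript. Plasma miRNAs are carried in vesicles, lipoproteins and protein complexes, and dystrophic muscle with leaky fibres is known to release muscle miRNAs such as miR-1a-3p, miR-206-3p and miR-133a-3p into blood.

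The sequences below are the RefSeq mature sequences (GRCm38.p6), written 5′ to 3′ with the seed in capitals. They are shown for the miRNAs on which the comparison turned and for their seed relatives. RefSeq gave 1 mature sequence for 319 of the 368 tested miRNAs. miR-92b-3p (chr3:89227126-89227147, minus strand, outside other annotated genes) shares its seed with miR-92a-3p and miR-25-3p, which are made from other clusters.
miR-92b-3p: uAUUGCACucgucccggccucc
miR-92a-3p: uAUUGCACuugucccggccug
miR-25-3p: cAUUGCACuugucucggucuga
miR-34b-3p (chr9:51103574-51103595, minus strand) and miR-34c-3p (chr9:51103044-51103065, minus strand) come from neighbouring hairpins that lie opposite an intron of Btg4 and share a seed. miR-449a-5p (chr13:113037549-113037570, plus strand) lies in an intron of Cdc20b and belongs to the same family through its 5p seed.
miR-34b-3p: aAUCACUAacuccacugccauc
miR-34c-3p: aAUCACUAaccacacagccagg
miR-449a-5p: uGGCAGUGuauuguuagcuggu
miR-451a (chr11:78073186-78073207, plus strand) is the red blood cell miRNA. miR-146b-5p (chr19:46342790-46342811, plus strand, an intron of Mfsd13a) and miR-146a-5p have the same seed, as do miR-26a-5p and miR-26b-5p, which lie in introns of genes of the Ctdsp phosphatase family.
miR-451a: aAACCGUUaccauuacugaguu
miR-146b-5p: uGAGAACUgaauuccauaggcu
miR-146a-5p: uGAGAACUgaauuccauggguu
miR-26a-5p: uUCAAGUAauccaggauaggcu
miR-26b-5p: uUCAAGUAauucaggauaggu
Among the miRNAs with lower levels, miR-193a-5p (chr11:79711975-79711996, plus strand) and miR-193b-5p (chr16:13449533-13449554, plus strand) each neighbour a copy of the miR-365 hairpin, at chr11:79726467-79726488 and at chr16:13453895-13453916 on the plus strand. Both copies give the same miR-365-3p. miR-615-3p (chr15:103014969-103014990, plus strand, an intron of Hoxc5), miR-1249-3p and miR-341-3p have the highest shares of G and C among the miRNAs shown with lower levels.
miR-365-3p: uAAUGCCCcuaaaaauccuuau
miR-193a-5p: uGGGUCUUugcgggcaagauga
miR-193b-5p: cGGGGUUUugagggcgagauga
miR-615-3p: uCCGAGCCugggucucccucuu
miR-1249-3p: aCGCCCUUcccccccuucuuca
miR-341-3p: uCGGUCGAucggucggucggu
The muscle miRNAs miR-206-3p (chr1:20679055-20679076, plus strand) and miR-133b-3p (chr1:20682834-20682855, plus strand) lie in exons of the same long non-coding RNA, Gm28653.
miR-206-3p: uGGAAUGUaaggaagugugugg
miR-133b-3p: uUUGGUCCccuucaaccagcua

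No tested plasma miRNA differed between Givinostat and naive mdx mice past the threshold of an adjusted p under 0.05 (edgeR's quasi-likelihood test with Benjamini-Hochberg adjustment over 368 miRNAs). The count was 0 in the higher direction (0% of those tested) and 0 in the lower (0%), and the smallest adjusted p was 0.162. At an unadjusted p under 0.05 there were 20 higher (5.43%) and 28 lower (7.61%), 48 in all (13%). This 13% is the background for the counts by list given below. DESeq2 called 2 higher and 0 lower with all 13 libraries, and 5 higher and 3 lower with the 6 libraries of the compared groups. Without the low-count filter edgeR called 9 higher, among them miR-449a-5p, and 2 lower. Without naive mdx mouse 36, edgeR called 0 and the smallest adjusted p was 0.0531. The median log2 fold change was -0.08 and the median size of a change 0.33, close to the median standard error of 0.36. The 95% interval lay within 2-fold in both directions for 148 miRNAs (40.2%), and for the others it reached past 2-fold with 3 mice per group. Levels did not overlap between the groups for 31 miRNAs with Givinostat above (8.42%) and 26 with Givinostat below (7.07%). Apart from miR-449a-5p, which was not tested, all differences named below between these groups are therefore values that did not pass the test.

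**Figure D1:**
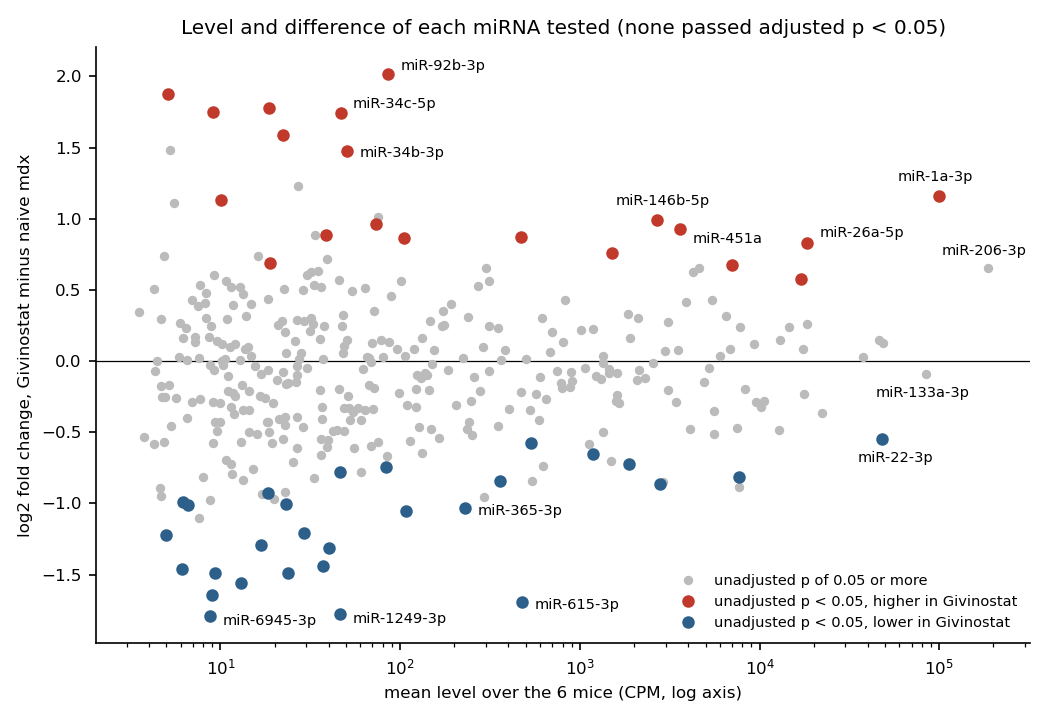
Each point is 1 of the 368 tested miRNAs, with its mean level over the 6 mice (CPM, log axis) against its log2 fold change, Givinostat minus naive mdx. Red and blue points have an unadjusted p under 0.05 (20 higher, 28 lower), none passed after adjustment, and the most abundant miRNAs (miR-133a-3p, miR-1a-3p, miR-206-3p) lie within 1.16 of 0.

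The smallest p belonged to miR-92b-3p, a low-abundance relative of the miR-17-92 cluster member miR-92a-3p. Its level was 57.9, 238 and 115 CPM in Givinostat mice 31, 34 and 35 and 58.3, 21.2 and 21.7 CPM in naive mdx mice 36, 37 and 39. Givinostat mouse 31 and naive mdx mouse 36 were at nearly the same level, so the groups overlapped, and the other Givinostat mice were above every naive mdx mouse. The log2 fold change was 2.02 ± 0.50 (SE, n = 3 and 3; 4.05-fold; edgeR adjusted p = 0.162). Without Givinostat mouse 31 the edgeR adjusted p was 0.0182, and DESeq2 with all 13 libraries gave 0.0319. Without mouse 34, the highest, the log2 fold change was 1.41. The other arm of the hairpin, miR-92b-5p, had 1.19, 13.3 and 9.93 CPM with Givinostat and 5.64, 0.707 and 0 CPM in naive mdx mice, a log2 difference of 1.88 ± 0.84 (SE) that moved to 4.31 without naive mdx mouse 36 and to 1.28 without mouse 39. The seed relatives were near 0 or below. miR-92a-3p had a log2 fold change of -0.51 (95% interval -1.21 to 0.18) and miR-25-3p of 0.08 (95% interval -0.35 to 0.52), and without naive mdx mouse 36 miR-92a-3p was at -0.01. The log2 ratio of miR-92b-3p to miR-92a-3p was -6.49, -4.03 and -5.36 in Givinostat mice and -7.52, -7.53 and -7.88 in naive mdx mice, without overlap. The difference of 2.35 had a two-sided exact permutation p of 0.1 (0.15 adjusted over 6 ratios chosen after the values were seen), the smallest p that 3 against 3 mice allow. Among these ratios, that of miR-34c-5p to miR-34c-3p overlapped between the groups (difference 0.44, exact permutation p = 0.5). So did that of miR-451a to miR-144-3p (0.48, exact permutation p = 0.2). Of 7 tested members of the miR-25/92 family, 2 had an unadjusted p under 0.05 (13% over all miRNAs tested), the 2 arms of miR-92b, and the family median was 0.08.

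The miR-34/miR-449 family, known to slow the cell cycle and induced by p53 in its miR-34 members, had the highest median of the 22 lists. All 3 tested members (miR-34b-3p, miR-34c-5p and miR-34c-3p) had an unadjusted p under 0.05, with a median log2 fold change of 1.59 against -0.08 over all miRNAs tested. The 3 come from neighbouring hairpins and are not independent. miR-34b-3p was at 37.0, 121 and 66.2 CPM in the Givinostat mice and 28.8, 25.5 and 26.1 CPM in the naive mdx mice, without overlap (log2 fold change 1.48 ± 0.40 SE, adjusted p = 0.162 by edgeR). miR-34c-5p was at 30.4, 140.2 and 44.7 CPM against 9.40, 34.7 and 20.1 CPM, and naive mdx mouse 37 lay above Givinostat mouse 31. Its log2 fold change of 1.75 ± 0.51 (SE) went down to 0.84 without Givinostat mouse 34. miR-34c-3p was at 10.7, 70.5 and 19.9 CPM against 9.40, 14.1 and 9.78 CPM (1.59 ± 0.55 SE), and its log2 fold change was 0.48 without mouse 34. Mouse 34 was the highest of the 6 for all 3, and without it the log2 fold change of miR-34b-3p was 0.98 (edgeR adjusted p = 0.416). Without Givinostat mouse 31, the lowest Givinostat mouse for miR-34b-3p, it was 1.81 (edgeR adjusted p = 0.0223).

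miR-449a-5p was too low for the filter and was not tested. Without the filter edgeR called it higher (adjusted p = 4.73e-07), and it was also called without Givinostat mouse 31 (edgeR adjusted p = 0.00406). In the latter fit it passed the filter only through Givinostat mice 34 and 35, the group where it is high. That call is therefore not separate support. With Givinostat mouse 34 left out it was too low for the filter, so that fit could not call it. miR-449a-5p had 2, 44 and 10 counts in Givinostat mice 31, 34 and 35 and 0 of 4226223 counts over the 3 naive mdx libraries, which allows up to 0.71 CPM for the group. Against that limit (3 counts over the group) the Givinostat mean of 13.6 CPM of library totals was at least 19.2-fold higher, and 6.08-fold without mouse 34. These bounds cover counting error only, and PCR reads without molecular identifiers are not independent molecules. The count was also 0 in each vehicle mouse. miR-34a-5p, the most widely expressed member, had 7, 6 and 4 counts with Givinostat and 5, 5 and 11 in naive mdx mice, and its level was not resolved at this depth.

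miR-451a, the main miRNA of red blood cells, had the next smallest p. It was at 5326, 5552 and 3393 CPM in the Givinostat mice and 2397, 2216 and 2875 CPM in the naive mdx mice, with every Givinostat mouse above every naive mdx mouse. The log2 fold change was 0.93 ± 0.24 (SE; edgeR adjusted p = 0.162). DESeq2 called it with all 13 libraries (adjusted p = 0.016) and with 6 (0.0425). Other red cell miRNAs were mixed, with a median of 0.03 over 8 tested members, of which 4 were above 0 and 1, miR-451a, had an unadjusted p under 0.05. miR-144-5p, from the hairpin beside miR-451a, had 0.89 ± 0.49 (SE; 0.32 without Givinostat mouse 31 and 1.49 without naive mdx mouse 39), while miR-486b-5p, which muscle also makes and whose counts cannot be separated from those of its copy miR-486a-5p, had -0.05 ± 0.41 (SE).

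miR-451a relative to miR-23a-3p (log2), a usual measure of haemolysis in plasma, was -0.69, -0.87 and -1.54 in Givinostat mice and -2.13, -2.68 and -1.80 in naive mdx mice. The groups did not overlap, and the difference of 1.17 had a two-sided exact permutation p of 0.1. When miR-486a-5p was the numerator instead, the difference was 0.25 (exact permutation p = 0.6). In naive wt mice the miR-451a ratio was 0.02, -0.11 and 0.11. The miR-23/27/24 clusters, which hold the denominator, took a mean of 2.2% of counts in naive wt and 6.03% in naive mdx mice. Whether the ratio followed red cell RNA or its denominator in these mice was not tested. The summed share of the red blood cell list was 1.11 to 1.31% of counts with Givinostat and 0.866 to 1.86% in naive mdx mice, which overlapped. An edgeR fit with the miR-451a to miR-23a-3p ratio as a covariate called 0 miRNAs, and the smallest adjusted p was 0.737. In this fit 10 miRNAs in the higher and 13 in the lower direction had an unadjusted p under 0.05. It gave log2 fold changes of 1.97 for miR-92b-3p and 1.63 for miR-34b-3p. Because the covariate did not overlap between the groups, the fit cannot separate this ratio, or haemolysis, from group. Whether these miRNAs differed apart from either was therefore not tested.

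miR-146b-5p, induced by NF-κB and known as a brake on inflammatory signalling, was at 4451, 3431 and 2819 CPM with Givinostat and 1243, 2425 and 1716 CPM in naive mdx mice, without overlap (0.99 ± 0.29 SE, adjusted p = 0.176 by edgeR). miR-146a-5p, which has the same seed, was at 4551, 4533 and 4788 CPM against 4356, 5467 and 5532 CPM (-0.15 ± 0.22 SE). The log2 ratio of miR-146b-5p to miR-146a-5p differed by 1.16 without overlap (exact permutation p = 0.1, adjusted 0.15). miR-155-5p, a miRNA of activated lymphocytes and macrophages, was at 139, 139 and 127 CPM with Givinostat and 76.4, 79.9 and 66.3 CPM in naive mdx mice (0.86 ± 0.32 SE). Of 6 tested members of the inflammation list, these 2 had an unadjusted p under 0.05 (13% over all miRNAs tested) and the median was -0.03. miR-21a-5p, the most abundant member, had a log2 fold change of 0.09 (95% interval -0.54 to 0.72).

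The abundant miR-26a-5p, a miRNA of differentiated cells that lowers Ezh2, was at 27788, 22638 and 20279 CPM in Givinostat mice and 10001, 15403 and 14428 CPM in naive mdx mice. The groups did not overlap (0.83 ± 0.29 SE, edgeR adjusted p = 0.27). Its seed relative miR-26b-5p was at 2116, 2093 and 1505 CPM against 869, 1277 and 1226 CPM, also without overlap (0.76 ± 0.33 SE). miR-30e-3p was at 615, 677 and 529 CPM against 264, 426 and 306 CPM (0.87 ± 0.28 SE), and of 10 tested miR-30 arms it alone had an unadjusted p under 0.05. miR-675-5p, made from the imprinted H19 RNA, stood low at 13.1, 11.0 and 18.2 CPM against 5.64, 2.83 and 3.80 CPM (1.75 ± 0.58 SE). miR-455-5p, from an intron of the collagen gene Col27a1, was at 100.2, 121 and 69.5 CPM against 33.2, 55.9 and 60.3 CPM (0.96 ± 0.35 SE). In all 5 of these miRNAs the lowest Givinostat mouse was above the highest naive mdx mouse, as in 8.42% of all miRNAs tested. They were chosen for a small p in these same mice or as a seed relative, so the separation is not separate support.

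**Figure D2:**
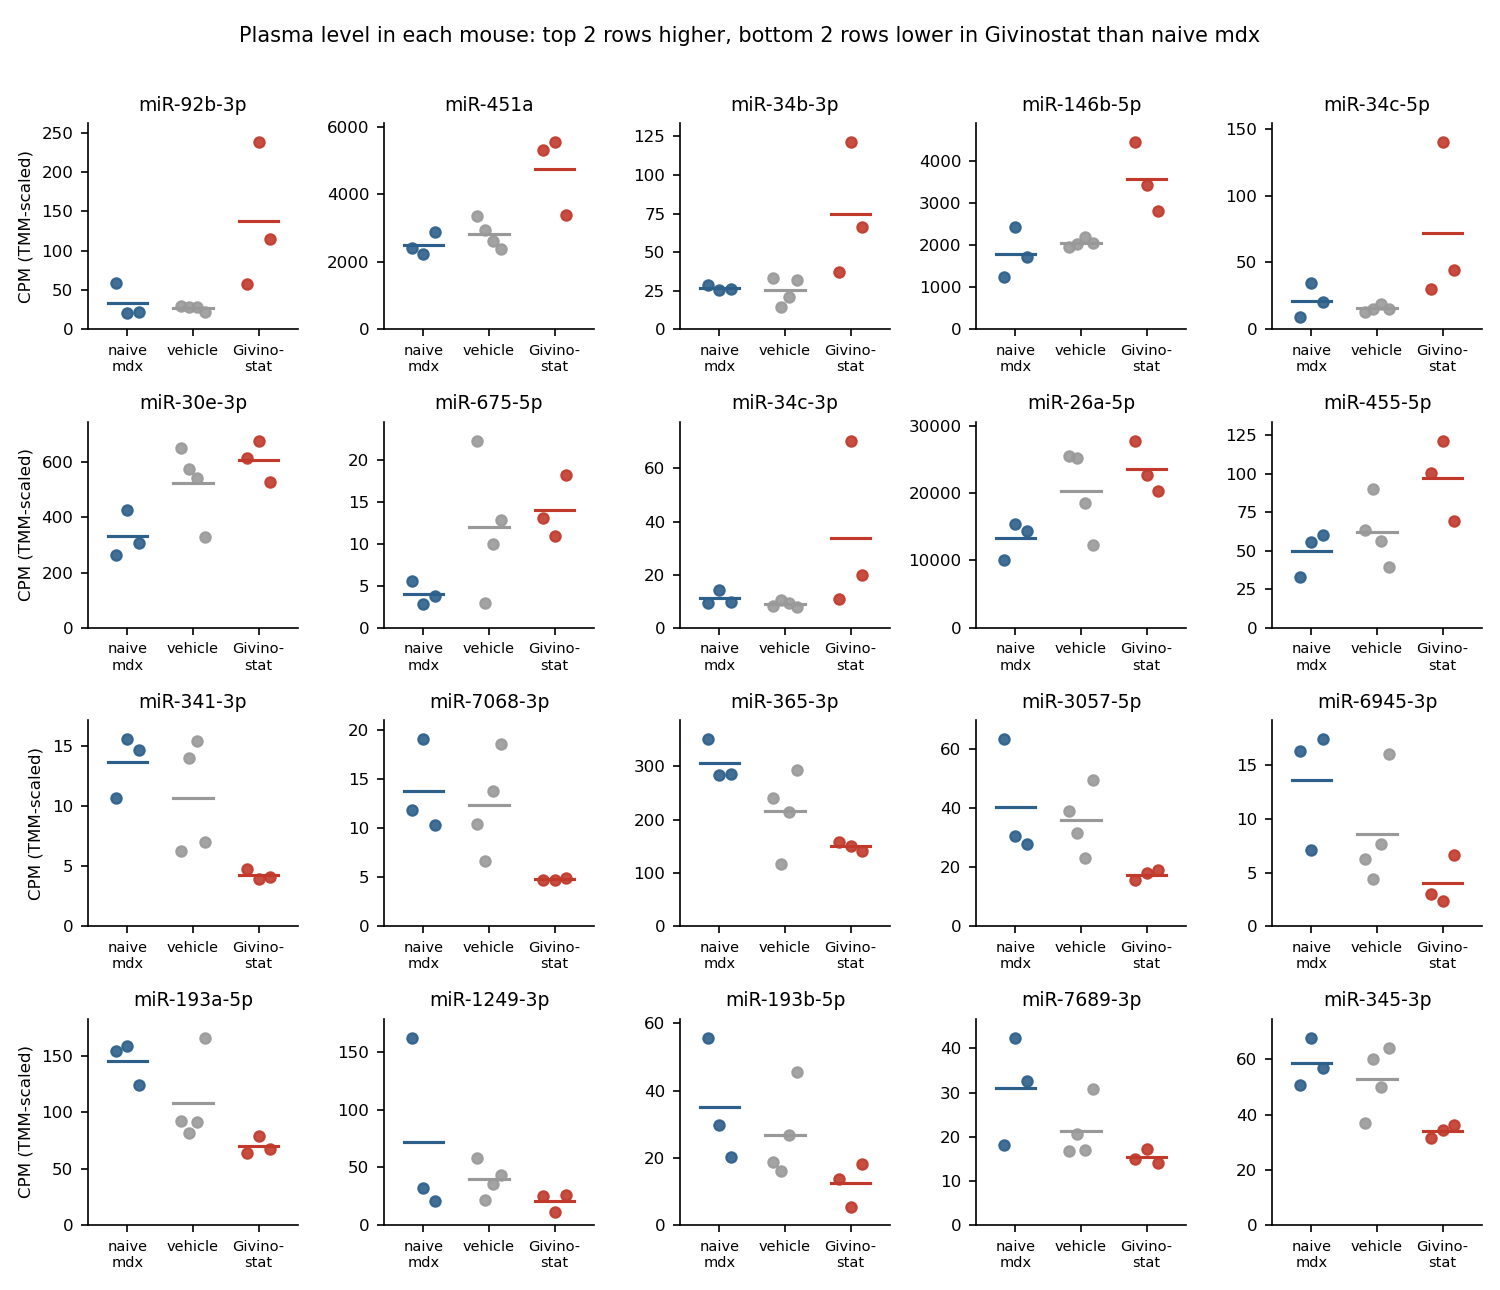
Level in each mouse (CPM, linear axes from 0) of the 10 miRNAs of smallest p in each direction, with a line at each group mean. Mouse 34 carries the highest values of miR-92b-3p, miR-34b-3p, miR-34c-5p and miR-34c-3p, while the Givinostat mice lie close together for miR-341-3p, miR-7068-3p and miR-365-3p.

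Among the miRNAs with lower levels, miR-365-3p was the most abundant of the 10 with the smallest p. miR-365-3p was at 159, 150.4 and 141 CPM with Givinostat and 351, 284 and 286 CPM in naive mdx mice, and the spread within each group was small beside the gap (-1.03 ± 0.31 SE, edgeR adjusted p = 0.188). miR-193a-5p, made beside a copy of miR-365, was at 63.8, 79.1 and 67.1 CPM against 154, 158 and 124 CPM, again without overlap (-1.05 ± 0.37 SE, adjusted p = 0.27 by edgeR). miR-193b-5p, beside the other copy, was at 13.7, 5.48 and 18.2 CPM against 55.7, 29.7 and 20.1 CPM (-1.49 ± 0.54 SE). miR-193 and miR-365 are known from brown fat and from blood cell differentiation. DESeq2 with 6 libraries called miR-365-3p (adjusted p = 0.0388) and miR-193a-5p (0.0425), and edgeR under each setting tried left them uncalled. miR-193 and miR-365 were chosen as a group after their values were seen.

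Most of the other miRNAs with lower levels were scarce. miR-341-3p, from the imprinted Dlk1-Dio3 cluster, was at 4.77, 3.92 and 4.14 CPM with Givinostat and 10.6, 15.6 and 14.7 CPM in naive mdx mice (-1.64 ± 0.42 SE, edgeR adjusted p = 0.162). It was the only miRNA of 34 tested in that cluster with an unadjusted p under 0.05, and the cluster median was -0.07. miR-7068-3p (-1.49), miR-3057-5p (-1.21), miR-6945-3p (-1.79), miR-7689-3p (-1.01) and miR-345-3p (-0.78), given as log2 fold changes, had all 3 Givinostat mice below all 3 naive mdx mice, and miR-3057-5p was at -0.76 without naive mdx mouse 36. The groups were separated in this direction for 7.07% of all miRNAs tested, and these miRNAs were chosen for a small p in the same mice. miR-7068-3p, miR-3057-5p and miR-6945-3p lie in exons of protein-coding genes (Cherp, Apba3 and Pdlim7).

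For 2 others a single naive mdx mouse carried much of the difference. miR-1249-3p was at 25.1, 11.7 and 25.7 CPM with Givinostat and 163, 31.8 and 21.2 CPM in naive mdx mice, and its log2 fold change of -1.78 ± 0.63 (SE) became -0.35 without naive mdx mouse 36. miR-615-3p, from the HoxC locus, was at 304, 128 and 243 CPM against 1238, 344 and 605 CPM. It did not overlap (-1.70 ± 0.64 SE), was called by DESeq2 with 6 libraries (adjusted p = 0.0388), and became -1.11 without naive mdx mouse 36. It lies outside the 10 of smallest p and was named after its values were seen. Mouse 36 was the highest naive mdx mouse for 19 of the 28 miRNAs with lower levels at an unadjusted p under 0.05 and the lowest for 13 of the 20 with higher levels. Givinostat mouse 34 was the highest of its group for 13 of those 20. These counts by mouse were not taken over all tested miRNAs.

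The muscle miRNAs, which made up the largest part of the counts, showed no shared direction. Their summed share was 38, 45.5 and 46.8% in Givinostat mice and 28.3, 39.7 and 30.2% in naive mdx mice, and naive mdx mouse 37 lay above Givinostat mouse 31. Of 8 tested members 2 were above 0, 6 below, and 1 had an unadjusted p under 0.05, with a median of -0.18. miR-206-3p, made by regenerating fibres and the most abundant miRNA, was at 160068, 272379 and 250555 CPM with Givinostat and 90942, 201626 and 140541 CPM in naive mdx mice (0.66 ± 0.32 SE, 95% interval -0.01 to 1.33). miR-1a-3p, of all striated muscle, was at 102613, 147424 and 164239 CPM against 25999, 105434 and 53663 CPM (1.16 ± 0.48 SE, edgeR adjusted p = 0.313). In both, naive mdx mouse 37 lay above Givinostat mouse 31 and mouse 36 was lowest, and the values moved with both mice. Without mouse 36 the log2 fold change was 0.78 for miR-1a-3p and 0.39 for miR-206-3p, and without mouse 37 it was 1.78 and 0.96.

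Their cluster partners were near 0 or below. miR-133a-3p was at 61601, 64610.1 and 118175 CPM with Givinostat and 88797, 112416 and 59255 CPM in naive mdx mice (-0.09, 95% interval -0.85 to 0.66, above 0 under 3 of the scaling, filter or covariate settings). miR-133a-5p had -0.18 (95% interval -0.88 to 0.52). miR-133b-3p was at 322, 527 and 549 CPM against 749.7, 1087 and 494 CPM (-0.74 ± 0.37 SE, and -0.40 without naive mdx mouse 37), and reads of miR-133b-3p and miR-133a-3p, nearly identical in sequence, may have been assigned to either. Within a mouse, the log2 ratio of miR-1a-3p to miR-133a-3p was 0.74, 1.19 and 0.47 with Givinostat and -1.77, -0.09 and -0.14 in naive mdx mice. That of miR-206-3p to miR-133b-3p was 8.96, 9.01 and 8.83 against 6.92, 7.54 and 8.15. Neither ratio overlapped between the groups (differences 1.47 and 1.4, both with an exact permutation p of 0.1 and an adjusted p of 0.15), although the ratios were chosen after the values were seen.

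Several other miRNAs tied to dystrophic muscle had negative log2 fold changes. miR-378b, a relative of the miR-378a made from an intron of the metabolic regulator Ppargc1b, was at 228, 348 and 194 CPM with Givinostat and 282, 619 and 478 CPM in naive mdx mice (-0.84 ± 0.34 SE, edgeR adjusted p = 0.31). miR-378a-3p had -0.49 ± 0.25 (SE), its other arm miR-378a-5p 0.33 ± 0.29 (SE), and 4 of the 5 family members were below 0 (209 of 368 over all miRNAs tested). As a share of library totals the family took 1.13 to 1.4% with Givinostat and 1.69 to 2.32% in naive mdx mice, which did not overlap. In TMM-scaled CPM, 0 of the 5 members were separated between the groups. A share of totals also falls when other miRNAs, such as those of muscle, take more of the counts. miR-22-3p, a regulator of muscle growth and cardiac hypertrophy, was at 35562, 35889.9 and 45953 CPM with Givinostat and 44519.5, 76333 and 50523 CPM in naive mdx mice (-0.55 ± 0.25 SE, adjusted p = 0.365 by edgeR). Its passenger arm miR-22-5p had -0.30 (95% interval -0.90 to 0.30). Naive mdx mouse 37 was the highest of the 6 for miR-378b and miR-22-3p, and without it the log2 fold changes were -0.59 for miR-378b, -0.13 for miR-378a-3p, -0.28 for miR-22-3p and 0.09 for miR-22-5p. Of 14 tested members of the dystrophic muscle signature 7 were above 0 and 7 below, and the median was -0.05. Against a background of 13%, 3 of the 14 had an unadjusted p under 0.05 (both arms of miR-34c higher, miR-22-3p lower).

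The hepatocyte miRNA miR-122-5p varied more between mice than between groups, at 25420.3, 49644 and 70834 CPM with Givinostat and 10024, 32652 and 89238 CPM in naive mdx mice. Its log2 fold change of 0.15 had a 95% interval of -1.40 to 1.69. miR-122-3p had 0.41 (95% interval -1.38 to 2.20), and miR-148a-3p 0.24 ± 0.36 (SE). None of 6 liver miRNAs had an unadjusted p under 0.05.

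Vascular and neuronal lists had the next highest medians after miR-34/miR-449. miR-143-3p of smooth muscle was at 7730.2, 9718 and 8582 CPM with Givinostat and 3316, 7462 and 5528 CPM in naive mdx mice (0.67 ± 0.30 SE), and miR-126a-3p of endothelium had 0.66 ± 0.36 (SE). Of the 6 vascular members 1 had an unadjusted p under 0.05 and the median was 0.48. In the neuronal list, miR-9-5p was at 17.3, 14.9 and 54.6 CPM against 1.25, 13.4 and 10.3 CPM (1.78 ± 0.77 SE) and was the only 1 of 6 with an unadjusted p under 0.05. Without Givinostat mouse 35 its log2 fold change was 0.91. miR-218-5p had 1.01 ± 0.50 (SE), and miR-128-3p, the most abundant, had -0.33 ± 0.34 (SE). Without naive mdx mouse 36 the log2 fold change was 0.39 for miR-143-3p and 0.62 for miR-218-5p. The defining neuronal miR-124-3p was near 0 in both groups, and the source of miR-9-5p was not tested.

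In the fibrosis list, miR-214-5p was at 60.9, 55.6 and 33.1 CPM with Givinostat and 13.8, 31.8 and 35.3 CPM in naive mdx mice (0.89 ± 0.39 SE) and alone of 10 had an unadjusted p under 0.05. The anti-fibrotic miR-29a-3p had -0.47 ± 0.25 (SE), and the median was 0.11. The log2 fold change of miR-214-5p was 0.53 without naive mdx mouse 36, and that of miR-29a-3p was -0.25 without mouse 37 and -0.71 without mouse 36. Of the 17 tested let-7 arms 13 were above 0 (median 0.30), against 159 of 368 over all miRNAs tested. let-7c-5p was at 20296, 22621 and 18427 CPM against 13877, 14989.9 and 12165 CPM (0.58 ± 0.22 SE), let-7i-5p had 0.32 ± 0.29 (SE), and let-7b-3p lay the other way (-0.74 ± 0.28 SE). Against a background of 13%, 2 of 17 let-7 arms had an unadjusted p under 0.05.

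White blood cell miRNAs gave no shared direction. The myeloid list had a median of -0.15 over 4 members, with miR-142a-5p at a log2 fold change of 0.08, miR-223-5p at -0.11 and miR-223-3p at -0.48 (-0.10 without naive mdx mouse 36 and -0.30 without Givinostat mouse 35). The lymphocyte list had a median of -0.18 over 8, with miR-181a-5p at -0.14 and miR-150-5p at -0.70, which became 0.31 without naive mdx mouse 36. Apart from miR-155-5p, no member of these lists had an unadjusted p under 0.05.

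The medians of the remaining lists stayed near that of all miRNAs. The miR-17-92 and miR-106b-25 clusters (median 0.08 over 14), the miR-15/16 family (0.15 over 9), the miR-23/27/24 clusters (-0.20 over 11), the miR-10, miR-99/100 and miR-125 families (-0.01 over 13), the epithelial and gut list (-0.07 over 15) and the Sfmbt2 cluster families (0.13 over 2) had no member with an unadjusted p under 0.05. Their most abundant members had log2 fold changes of 0.43 for miR-16-5p, -0.10 for miR-322-3p, -0.37 for miR-24-3p, -0.28 for miR-23a-3p, 0.13 for miR-99a-5p and 0.24 for miR-10b-5p. The epithelial miR-205-5p was at -0.09 and miR-215-5p of gut and liver at 0.15. The log2 fold change was 0.51 for miR-669c-5p and -0.25 for miR-467c-5p of the Sfmbt2 cluster. In the miR-30 family (median 0.19 over 10), miR-30d-5p was at 0.03 and miR-30c-5p at 0.26, and in the Dlk1-Dio3 cluster miR-434-5p was at 0.25 and miR-381-3p at -0.02. As a share of library totals the miR-23/27/24 clusters took 3.66 to 4.85% with Givinostat and 5.2 to 6.55% in naive mdx mice, which did not overlap. In TMM-scaled CPM, 0 of their members were separated with Givinostat below and 1 with Givinostat above. Of their 11 tested members 8 were below 0 (209 of 368 over all miRNAs tested), and miR-23a-3p is also the denominator of the haemolysis measure.

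**Figure D3:**
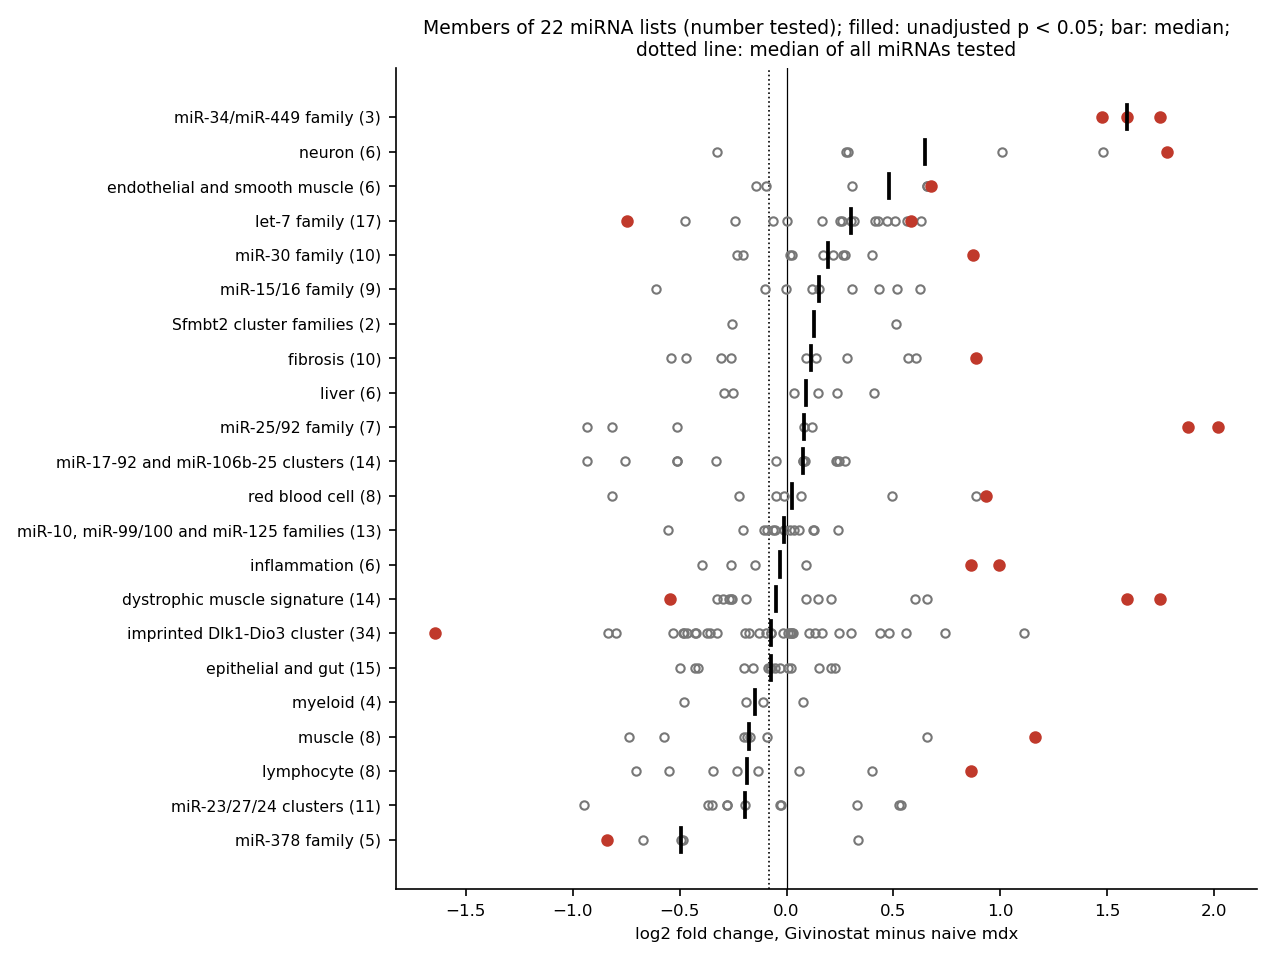
Each circle is a tested member of a list, at its log2 fold change (Givinostat minus naive mdx), with the number tested in parentheses, filled circles for an unadjusted p under 0.05 and a bar at the list's median. The miR-34/miR-449 family (median 1.59) lies apart from the dotted line at the median of all miRNAs (-0.08), and most other medians lie within 0.5 of 0.

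Since naive mdx mice were not gavaged, the vehicle mice were set between the groups. Vehicle against naive mdx had 0 of 368 called (0%; 17 at an unadjusted p under 0.05), and Givinostat against vehicle had 1 (0.272%), miR-92b-3p. The comparisons share libraries. For miR-92b-3p the vehicle mice lay at 22.4 to 29.3 CPM, within the range of naive mdx mice (vehicle minus naive mdx -0.33 ± 0.47 SE), and Givinostat minus vehicle was 2.35 ± 0.46 (SE; edgeR adjusted p = 0.0374). For miR-34b-3p the vehicle range was 14.7 to 33.5 CPM and the vehicle step -0.08 ± 0.38 (SE), against a drug step of 1.56 ± 0.36 (adjusted p = 0.0693 by edgeR). For miR-34c-5p the steps were -0.44 ± 0.49 and 2.19 ± 0.48 (SE; edgeR adjusted p = 0.0522 for the latter).

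For miR-146b-5p and miR-451a the larger part of the difference also lay between vehicle and Givinostat, with steps of 0.80 ± 0.27 and 0.76 ± 0.22 (SE), against 0.20 and 0.17 between naive mdx and vehicle. The step from vehicle to Givinostat was the larger for 7 of the 10 higher and 9 of the 10 lower miRNAs of smallest p. These were chosen for a small p between Givinostat and naive mdx, and the share over all tested miRNAs was not counted. Over all 368, the median size of a change was 0.25 for the drug step and 0.27 for the vehicle step. For miR-675-5p, miR-30e-3p and miR-26a-5p the larger part lay between naive mdx and vehicle. The vehicle step was 1.54 ± 0.55 (SE) for miR-675-5p, 0.66 ± 0.26 for miR-30e-3p and 0.62 ± 0.28 for miR-26a-5p, with a drug step of 0.22, 0.21 and 0.21, respectively. For miR-206-3p the steps were 0.49 ± 0.30 and 0.17 ± 0.29 (SE), and for miR-1a-3p 0.52 ± 0.45 and 0.64 ± 0.44 (SE). Apart from the drug step of miR-92b-3p, none of these steps passed the adjusted threshold.

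**Figure D4:**
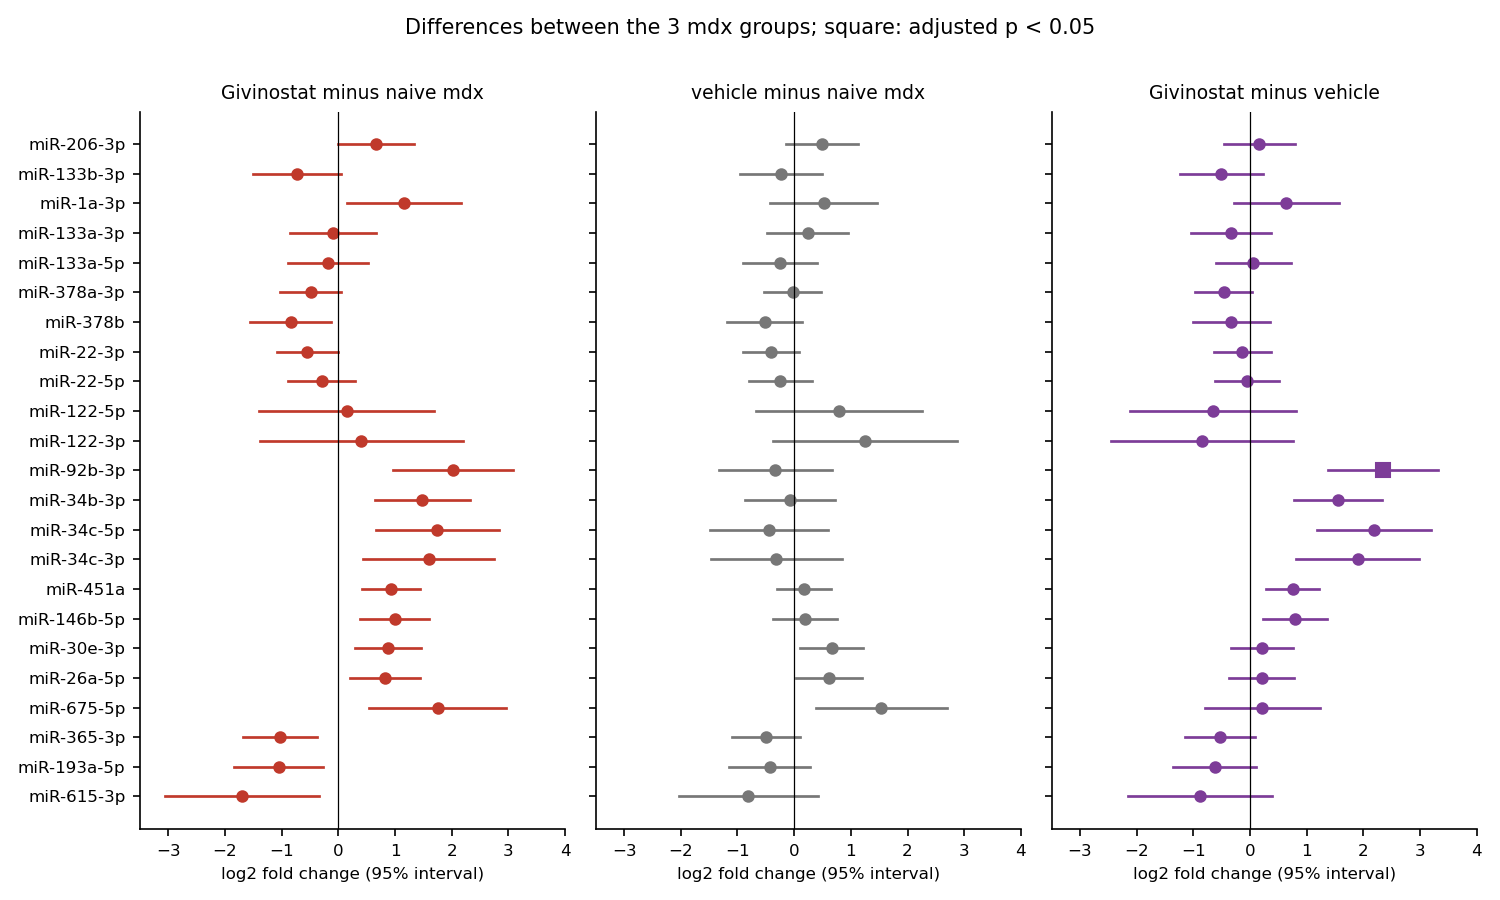
Log2 fold changes with 95% intervals for 23 miRNAs named in the text, in Givinostat minus naive mdx, vehicle minus naive mdx and Givinostat minus vehicle. The square marks miR-92b-3p in Givinostat minus vehicle (2.35), the only one with an adjusted p under 0.05, and miR-675-5p, miR-30e-3p and miR-26a-5p stand farther from 0 in the vehicle column than in the drug column.

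The log2 fold changes varied with the GC content of the mature miRNA. Over the 319 miRNAs with a sequence, Spearman's rho between GC content and the log2 fold change was -0.45 (Pearson's r -0.40), a description across miRNAs measured in the same 6 libraries. The median log2 fold change was 0.25 for 50 miRNAs under 40% GC, 0.00 for 103 from 40% to under 50%, -0.18 for 114 from 50% to under 60%, and -0.55 for 52 at 60% or more, of which 44 were below 0. With the difference of mean log2(CPM + 1) values rho was -0.43, and it was -0.11 without naive mdx mouse 36 and -0.37 to -0.50 without any other mouse. Between Givinostat and vehicle, a comparison without naive mdx mouse 36, rho was -0.53, and between vehicle and naive mdx it was -0.08. The GC-rich minus GC-poor level was -0.52, -0.64 and -0.28 in the Givinostat mice and 1.17, -0.26 and -0.23 in naive mdx mice. Among vehicle mice it ranged from -0.67 to 1.08. Of the miRNAs at an unadjusted p under 0.05, the 17 higher had a median GC content of 45.5% and the 27 lower one of 57.1%. miR-92b-3p and miR-675-5p, both 63.6% GC, lay against this relation. With offsets for GC content in each library, an alternative added after the data were seen, edgeR called these 2 as higher (adjusted p 0.0115 and 0.0465) and 0 as lower.

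**Figure D5:**
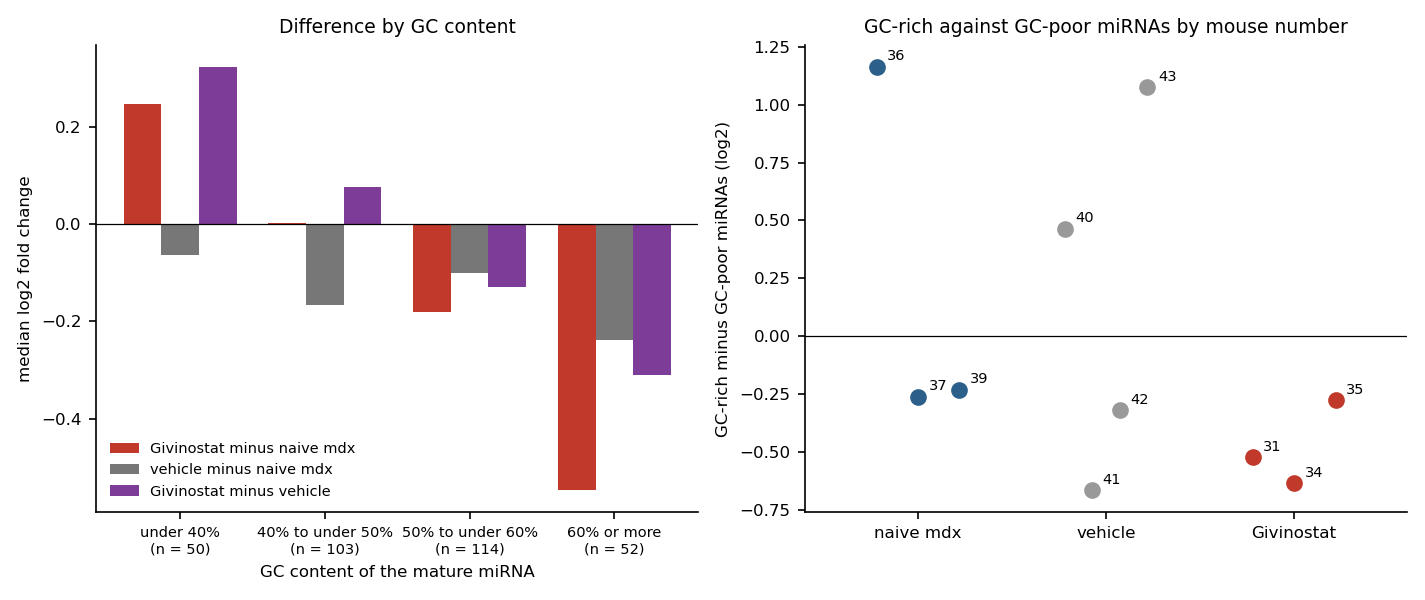
Left, median log2 fold change of miRNAs in 4 classes of GC content for each pair of mdx groups. Right, median deviation of miRNAs at 60% GC or more minus that of miRNAs under 40% GC, on the log2(CPM + 1) scale, in each mouse with its number. Naive mdx mouse 36 (1.17) and vehicle mouse 43 (1.08) lie high, and the Givinostat mice lie between -0.64 and -0.28.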

How the data were processed

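Small RNA was extracted from plasma with a serum and plasma kit, made into libraries with the NEBNext small RNA kit (no molecular identifiers are described) and sequenced on a NextSeq. The deposited counts are raw read counts per mature miRNA, made by the authors by alignment to mm10. The submitters' processing notes name the aligner Bowtie 1.0.0 besides cutadapt 1.4.2 and bcl2fastq 1.37.0, while the study's methods name Trimmomatic for trimming. The deposited log2 table, in which the authors scaled counts by a factor per library and left small counts blank, was used only in 2 alternatives with limma 3.58.1 and pseudocounts of 1 and 5. Counts were tested in R 4.3.3 with edgeR 4.0.16 (TMM, filterByExpr by group with a minimum count of 10, glmQLFit and glmQLFTest) over all 13 libraries with a mean per group, called at an adjusted p under 0.05, and DESeq2 1.42.0 was an alternative. The step was tested on simulated data. Members and lists were chosen with earlier results of these data known. Named miRNAs were, by rule, the 10 of smallest p in each direction, as none was called, the plasma miRNAs the study names, the 2 most abundant tested members of each list and members with an unadjusted p under 0.05, and the 5 most abundant. Seed and cluster relatives were added after their values were seen. Replicates are separate mice. Library totals, given in the report, set the precision of low miRNAs, and intervals cover spread between 3 mice per group.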

Additional observations from a re-analysis of the deposited data

Results flagged for a closer look

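miR-92b-3p differed between Givinostat and vehicle mice in their distance from naive mdx mice. Givinostat minus naive mdx was 2.02 and vehicle minus naive mdx -0.33 on the log2 scale, and the difference between these steps was 2.35 (edgeR's quasi-likelihood test, adjusted p = 0.0374). All 3 Givinostat mice were above all 4 vehicle mice. Groups of 3 mice were not searched for single outlying mice.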

How the results depend on the processing

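No paired analysis was possible because the groups share no replicate numbers. Over 24 alternatives, 1567 of 1682 values of the 72 named and tested miRNAs kept their direction and their side of the threshold, 24 passed it and 91 changed sign. The number called higher, 0, became 9 without the low-count filter, 2 with DESeq2 on all 13 libraries, 5 with DESeq2 on 6 libraries, 2 with GC offsets (added after the data were seen), and 0 to 3 when single mice were left out, with 3 (miR-34b-3p, miR-449a-5p, miR-92b-3p) without Givinostat mouse 31. The number called lower, 0, became 2 without the filter and 3 with DESeq2 on 6 libraries, and was 0 whichever mouse was left out. Without the filter 1203 miRNAs were tested, many near 0 counts. Scaling by library totals moved the median of all miRNAs to -0.32 and the split at an unadjusted p under 0.05 to 8 higher and 42 lower, against 20 and 28. In limma the split was 7 and 28 or 7 and 33. The cause was not tested.

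Log2 fold changes that changed sign, none past the threshold either way, were the following. With miR-451a relative to miR-23a-3p as covariate they were miR-133a-5p 0.65, miR-133b-3p 0.65, miR-133a-3p 1.22, miR-22-5p 0.52, miR-22-3p 0.23, miR-214-5p -0.069, miR-144-5p -1.17, miR-126a-3p -0.37, miR-21a-5p -0.23, miR-148a-3p -0.075, miR-486b-5p 0.92, miR-142a-5p -0.35, miR-128-3p 0.52, miR-218-5p -0.41, miR-25-3p -0.15, let-7i-5p -0.52, miR-16-5p -0.046, miR-322-3p 0.35, miR-23a-3p 0.19 and miR-434-5p -0.32. With upper-quartile scaling they were miR-133a-3p 0.069, miR-486b-5p 0.12, miR-223-5p 0.044, miR-205-5p 0.057, miR-322-3p 0.052 and miR-381-3p 0.10. Without the filter they were miR-133a-3p 0.031, miR-486b-5p 0.078, miR-223-5p 0.0057, miR-205-5p 0.023, miR-322-3p 0.017 and miR-381-3p 0.084. With library totals they were miR-122-5p -0.12, miR-99a-5p -0.082, miR-21a-5p -0.073, miR-142a-5p -0.13, miR-215-5p -0.12, miR-25-3p -0.15 and miR-30d-5p -0.22. With limma and a pseudocount of 1 they were miR-99a-5p -0.099, miR-21a-5p -0.085, miR-142a-5p -0.17, miR-215-5p -0.17, miR-25-3p -0.14 and miR-30d-5p -0.20. With limma and a pseudocount of 5 they were miR-99a-5p -0.099, miR-21a-5p -0.085, miR-142a-5p -0.17, miR-215-5p -0.17, miR-25-3p -0.14 and miR-30d-5p -0.20. With GC offsets they were miR-21a-5p -0.089, miR-142a-5p -0.25, miR-215-5p -0.018 and miR-205-5p 0.091. With DESeq2 on 6 libraries they were miR-486b-5p 0.0016 and miR-381-3p 0.031. With edgeR on 6 libraries they were miR-486b-5p 0.011 and miR-381-3p 0.033. With RLE scaling it was miR-381-3p 0.019. With a filter at a mean of 10 CPM it was miR-381-3p 0.027. With DESeq2 on 13 libraries it was miR-381-3p 0.016. Leaving out single mice gave ranges that crossed 0 for miR-122-3p -0.078 to 1.13, miR-122-5p -0.35 to 1.22, miR-133a-3p -0.49 to 0.17, miR-133a-5p -0.44 to 0.25, miR-142a-5p -0.097 to 0.17, miR-148a-3p -0.067 to 0.51, miR-150-5p -1.08 to 0.31, miR-205-5p -0.20 to 0.0043, miR-215-5p -0.35 to 0.39, miR-21a-5p -0.19 to 0.24, miR-22-5p -0.55 to 0.088, miR-30d-5p -0.13 to 0.15, miR-381-3p -0.32 to 0.15, miR-434-5p -0.11 to 0.45, miR-467c-5p -0.96 to 0.68 and miR-486b-5p -0.34 to 0.41.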
